A study of Mus musculus with 16 samples.

Results

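The genes described here encode the enzymes of the hepatic methionine cycle and of transsulfuration, measured by RNA sequencing of mouse liver. They were chosen as the rows of the deposited expression table whose Ensembl identifier carries 1 of 10 listed symbols in the mouse annotation. Of these, 9 were found, namely Mat1a, Gnmt, Pemt, Ahcy, Bhmt, Bhmt2, Cbs, Cth and Cdo1, and the remaining entry, Nnmt-as-none, is not a mouse gene symbol. The table holds 55487 rows, of which 11839 had a mean of at least 1 TPM, a measure of transcript abundance per exon length that sums to the same total in every library, and were tested, and all 9 genes found were among these.

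Livers came from 16 male C57BL6/J mice, with 1 library per mouse and 4 mice in each of 4 groups. Per the labels the mice were 10 weeks old and lean when they went onto a high-fat diet with 60 kcal% fat, which they ate for 8 weeks before the study. They were then housed singly, and the high-fat diet they ate contained either standard (SP) or high protein (HP). Each day for 22 days they received vehicle or G108, a long-acting glucagon receptor agonist, subcutaneously at 2.5 nmol/kg, and they were culled on day 25 after a 4 h fast. The groups are named vehicle SP, G108 SP, vehicle HP and G108 HP, and all 4, the vehicle groups included, ate a high-fat diet, so no lean or chow-fed liver was compared. The design asks how a low dose of the agonist, with or without more protein in the diet, acts on the liver of obese mice. The study's methods give a younger starting age and an earlier cull than the labels do, and they place the last part of the high-fat feeding before dosing on the SP or HP diet itself.

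In the methionine cycle, methionine is activated to S-adenosylmethionine (SAM), the methyl donor of the cell, and each methyl transfer leaves S-adenosylhomocysteine, which is cleaved to homocysteine. Homocysteine can be methylated back to methionine, in liver partly with betaine as the donor. Alternatively, it is condensed with serine and passed through transsulfuration to cysteine, from which taurine, sulfate and glutathione are made. The liver carries most of this flux, and glucagon is a hormone of the fasted state under which hepatic amino acid breakdown increases.

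Libraries held between about 27800000 and 45000000 reads assigned to genes, recovered from the steps in the low values, and each of the 9 genes rested on at least 2269 reads in every library. TPM are shares of a library, and the shares of other transcripts differed between groups. Major urinary protein (Mup) genes took 42.6 to 49.7% of TPM in vehicle SP, 35.7 to 44.9% in vehicle HP, 18.3 to 22.99% in G108 SP and 18.2 to 29.6% in G108 HP, and the 37 genes of the mitochondrial genome took 13.8 to 37.3%. In TPM as deposited, the median of all tested genes was 0.60 higher on the log2 scale with G108 than with vehicle on SP, 0.09 higher on HP, 0.35 lower on HP than on SP with G108, and 0.14 higher on HP than on SP with vehicle. Values called scaled TPM below were divided by a median-of-ratios factor for each library, which brought these medians to about 0, so that a scaled difference is a difference relative to the median gene. Markers of hepatocytes were abundant, with a summed level of 18878 to 28340 scaled TPM over 5 of 6 markers found. On HP this sum was 18878 to 21707 with G108, below the 21750 to 25152 with vehicle, whereas on SP the groups overlapped. Singly the hepatocyte markers moved in both directions. From vehicle SP to G108 SP the mean went from 13105 to 13204 for Alb and from 185 to 415 for Cps1. It went from 5692 to 4491 for Apoa1, from 3749 to 3243 for Ttr and from 2264 to 1729 for Cyp2e1. From vehicle HP to G108 HP the means of Alb, Apoa1 and Cyp2e1 were lower and those of Ttr and Cps1 higher. Marker genes tested were 5 for hepatocytes, 4 for Kupffer cells, 4 for endothelium and 1 for cholangiocytes. For stellate cells 4 were tested, for blood 5, for adipocytes 0 and for exocrine pancreas 1. Between G108 and vehicle 0 of them were called on either diet, against 2.72% of all genes on SP and 1.22% on HP. With so few markers tested, 0 calls do not show that the composition was alike. All 5 blood markers were found, and their sum was 840 to 3084 scaled TPM in vehicle SP, 994 to 1302 in vehicle HP, 654 to 916 in G108 SP and 983 to 2380 in G108 HP. The sum over 5 endothelial markers was 15.7 to 18.7 in G108 SP, below the 19.9 to 24.5 of vehicle SP, while on HP the groups overlapped. The sum over 5 Kupffer cell markers was 21.0 to 70.1, the sum over 5 adipocyte markers was at most 1.23, and Lep and Prss2 were at 0 in every library. The adipocyte sum was at most 0.0472 in G108 SP and 0.149 to 1.23 in vehicle SP. What part these differences in composition had in the values below was not tested. In bulk tissue, fewer cells of a type and less RNA per cell cannot be told apart.

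Two-sided tests were run in limma on log2(scaled TPM + 1), with all 16 libraries in 1 model, and a gene was called when its Benjamini-Hochberg adjusted p over all 11839 genes was under 0.05. With G108 on SP, 2 of the 9 genes were called, Gnmt and Cbs, and both were higher. In that comparison 2.72% of all genes tested were called, and 1.33% were called higher. The median over the 9 genes was 0.30 on the log2 scale, against −0.01 over all genes. With G108 on HP, 0 of the 9 were called, against 1.22% of all genes, with a median of 0.12. Between HP and SP, 0 of the 9 were called with G108 and 0 with vehicle, and the background was 0% in both comparisons. The interaction of G108 and diet called 0 of the 9 and 0% of all genes. At an unadjusted p under 0.05, 5, 3, 0, 1 and 2 of the 9 passed in these comparisons in turn, as did 2098, 1337, 639, 466 and 855 of all genes. An F test for any difference among the 4 groups called 2 of the 9, again Gnmt (adjusted p = 0.0157) and Cbs (adjusted p = 0.0158), against 2.78% of all genes, and Cth was next with an adjusted p of 0.0701.

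In TPM as deposited, G108 on SP called 8 of the 9 genes, all higher, but it also called 77.6% of all genes. On HP the deposited values called 0 of the 9 and 1.11% of all genes. The 8 genes therefore rose as shares of the library on SP, while Gnmt and Cbs also rose relative to the median gene.

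**Figure D1:**
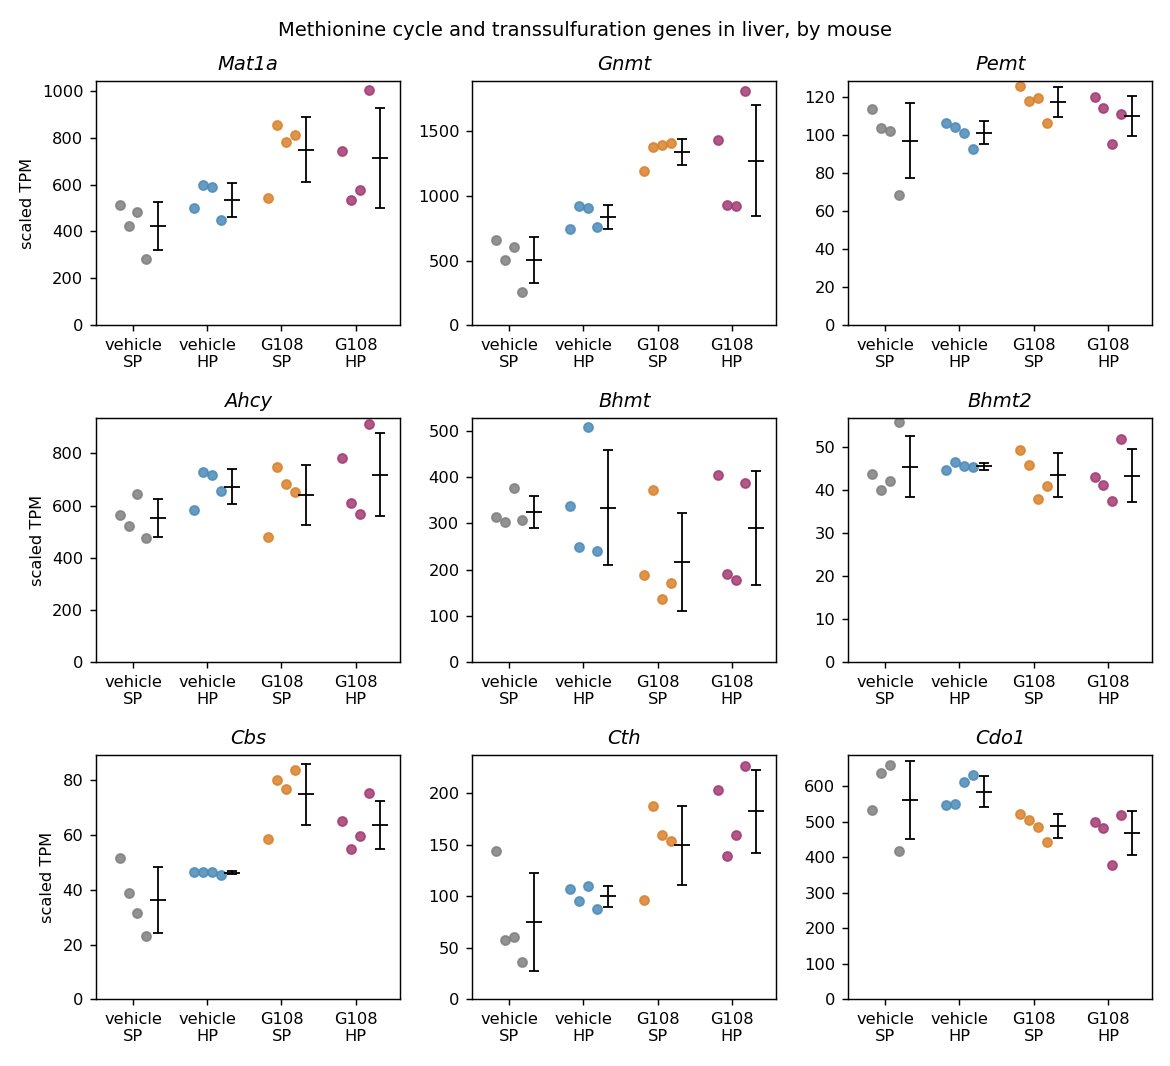
Level of each of the 9 genes in every mouse, in scaled TPM (vertical axis, from 0), by group (horizontal axis). Points are mice in the order of their numbers, and the bar to the right of each group is the mean with its SD. Gnmt, Cbs and Mat1a in G108 SP sit above every mouse of vehicle SP, whereas Bhmt2 lies between 37.4 and 55.9 in all 4 groups.

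The 2 genes called both lie on the minus strand of chromosome 17. Their upstream sequences are shown because these genes rose together, with the first 200 bases of the RefSeq promoter entry of each (GRCm38.p6, minus strand, read 5′ to 3′, from position −250 to position −51 before the annotated start, with no overlap with an annotated exon), and capitals mark an E-box.
Gnmt, chr17:46729216-46729415: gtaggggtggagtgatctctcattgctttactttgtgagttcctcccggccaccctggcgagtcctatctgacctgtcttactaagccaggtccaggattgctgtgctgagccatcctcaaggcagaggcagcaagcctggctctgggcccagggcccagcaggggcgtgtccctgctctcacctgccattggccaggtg
Cbs, chr17:31637256-31637455: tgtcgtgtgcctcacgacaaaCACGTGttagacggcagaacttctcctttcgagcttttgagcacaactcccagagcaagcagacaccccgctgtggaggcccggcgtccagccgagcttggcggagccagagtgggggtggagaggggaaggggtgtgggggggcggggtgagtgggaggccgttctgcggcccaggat
Motifs were searched on both strands over 300 bases of promoter in 7 entries for 6 of the genes (Gnmt, Cbs, Ahcy, Pemt, Bhmt and Bhmt2). The cAMP response element TGACGTCA was in 0 of the 7 entries and in 1.79% of 32851 promoters of the same length. The shorter site TGACG, which is contained in it, was in 0 of the 7 and in 20.8% of all promoters. The C/EBP-ATF element TGATGNAA was in 0 of the 7 and in 3.97% of all. The E-box CACGTG was in 1 entry, that of Cbs, where it starts at position −229, and in 7.15% of all. These are descriptions of the letters in these windows.

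Mat1a encodes methionine adenosyltransferase of adult liver, which makes SAM (ENSMUSG00000037798, GRCm38 chr14:41105035-41124412, plus strand). TPM as deposited was 355, 408, 431 and 192 in the 4 vehicle SP mice and 641, 1132, 1207 and 1194 in the G108 SP mice. On HP it was 418, 642, 541 and 393 with vehicle and 763, 505, 487 and 1249 with G108. On SP every G108 mouse was above every vehicle mouse, also after scaling, whereas on HP the groups overlapped. The scaled level was 424 ± 102 (SD, n = 4) in vehicle SP and 748 ± 139 in G108 SP, a log2 difference of 0.83 ± 0.23 (SE) with an adjusted p of 0.0706, which missed the threshold. Without scaling the difference was 1.61, with an adjusted p of 0.00137. On HP the scaled difference was 0.38, with a 95% interval from −0.10 to 0.87. Without G108 SP mouse 1, whose scaled level of 545 was the lowest of its group, the SP difference was 0.98 and its adjusted p 0.0310, and without G108 HP mouse 4 that p was 0.0456.

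Gnmt encodes glycine N-methyltransferase, an abundant liver enzyme that uses up SAM by methylating glycine to sarcosine (ENSMUSG00000002769, chr17:46725664-46729168, minus strand). It had the highest level of the 9, with a mean of 1099 TPM over all libraries, and ranked 92 among all genes. TPM as deposited was 456, 484, 543 and 173 in vehicle SP and 624, 985, 830 and 667 in vehicle HP. With G108 it was 1402, 1828, 2146 and 2069 on SP and 1467, 882, 777 and 2247 on HP. On SP the lowest G108 mouse was above the highest vehicle mouse by a wide margin, whereas on HP mice 2 and 3 of the G108 group fell within the vehicle range. The scaled level was 505 ± 180 (SD, n = 4) in vehicle SP, 834 ± 92.5 in vehicle HP, 1342 ± 101 in G108 SP and 1274 ± 429 in G108 HP. With G108 on SP Gnmt rose by 1.49 ± 0.27 (log2, SE), or 2.82-fold, with an adjusted p of 0.00739, and it stayed called when any 1 of the 16 libraries was left out, with differences from 1.19 to 1.65. On HP the scaled groups did not overlap, but the difference was 0.56 with an interval from −0.02 to 1.13 and an adjusted p of 0.461. Between the diets with vehicle, each HP mouse was above each SP mouse, and the difference was 0.80. Its unadjusted p in limma was 0.00962 and its adjusted p 0.832, so it was not called. With G108 the diet difference was −0.13, with an interval from −0.71 to 0.44. The G108 difference was 0.94 smaller on HP than on SP by the interaction term, with an unadjusted limma p of 0.0273 and an adjusted p of 0.575.

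Pemt encodes phosphatidylethanolamine N-methyltransferase, which makes phosphatidylcholine with SAM as the donor (ENSMUSG00000000301, chr11:59970614-60046489, minus strand). TPM as deposited was 78.8, 100, 91.0 and 46.6 in vehicle SP, 88.7, 111, 92.5 and 81.1 in vehicle HP, 147, 156, 184 and 156 in G108 SP, and 123, 108.2, 80.2 and 137 in G108 HP. As a share of the library it was higher in every G108 SP mouse than in any vehicle SP mouse, but the scaled values overlapped. The scaled difference on SP was 0.30 ± 0.14, with an adjusted p of 0.278, and on HP it was 0.12 with an interval from −0.17 to 0.41. The deposited TPM gave an SP difference of 1.07, with an adjusted p of 0.00154.

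Ahcy encodes S-adenosylhomocysteine hydrolase, which cleaves the product of the methyl transfers (ENSMUSG00000027597, chr2:155059310-155074497, minus strand). Its scaled level was 552 ± 72.3 (SD, n = 4) in vehicle SP, 673 ± 67.1 in vehicle HP, 640 ± 115 in G108 SP and 719 ± 159 in G108 HP. The groups overlapped in all 4 pairwise comparisons, and the scaled difference with G108 was 0.20 on SP, with an interval from −0.16 to 0.57, and 0.08 on HP, with an interval from −0.29 to 0.44. The SP difference in TPM as deposited was 0.98, with an adjusted p of 0.00614. These values are uncertain for another reason, since 68.7% of the 31-base sequences of Ahcy also occur in Gm4737, a near-identical copy with a mean of 203 TPM, and reads could be split between them. Gm4737 was at 191 ± 23.8 scaled TPM in vehicle SP, 194 ± 29.9 in vehicle HP, 178 ± 20.03 in G108 SP and 233 ± 9.45 in G108 HP. With G108 its 4 values on HP, 224 to 241, lay above its 4 values on SP, 156 to 203.

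Bhmt and Bhmt2 lie next to each other on the minus strand of chromosome 13 and encode methyltransferases that return homocysteine to methionine, Bhmt with betaine as the donor and Bhmt2 with S-methylmethionine. Bhmt (ENSMUSG00000074768, chr13:93616675-93637961) was at 217, 292, 336 and 209 TPM in vehicle SP, 283, 268, 465 and 210 in vehicle HP, 222, 495, 210 and 251 in G108 SP, and 415, 180, 149 and 482 in G108 HP. G108 SP mouse 2 stood above the other mice of its group, and in G108 HP mice 1 and 4 stood above mice 2 and 3. The scaled difference with G108 on SP was −0.68 ± 0.34, with an interval from −1.40 to 0.04 and an adjusted p of 0.309, whereas in TPM as deposited it was 0.09. On HP the scaled difference was −0.24, with an interval from −0.96 to 0.48. Of the 31-base sequences of Bhmt, 27.1% occur in Gm5096 (mean 15.99 TPM) and 15.6% in the pseudogene Bhmt-ps1. Its exons also overlap those of the antisense gene Gm15622 (mean 192 TPM) over 187 bases, and as the strand setting of the counting is not given in the sources used here, reads of the overlap cannot be told apart. Bhmt2 (ENSMUSG00000042118, chr13:93655720-93674302) had the lowest mean of the 9, 45.7 TPM. Its scaled level was 45.5 ± 7.10 (SD, n = 4) in vehicle SP and 45.6 ± 0.80 in vehicle HP, and with G108 it was 43.6 ± 5.11 on SP and 43.4 ± 6.15 on HP. The scaled difference was −0.06 on SP, with an interval from −0.32 to 0.21, and −0.08 on HP, with an interval from −0.34 to 0.18, and its standard error was the smallest of the 9. As a share of the library, Bhmt2 was 0.71 higher with G108 on SP, with an adjusted p of 0.00379, so its direction there turned with the scale.

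Cbs encodes cystathionine beta-synthase, which commits homocysteine to transsulfuration (ENSMUSG00000024039, chr17:31608894-31637238, minus strand). TPM as deposited was 35.7, 37.5, 28.0 and 15.8 in vehicle SP and 38.8, 49.8, 42.4 and 39.7 in vehicle HP. With G108 it was 68.8, 106, 118 and 123 on SP and 66.9, 51.9, 50.002 and 93.2 on HP. Every G108 mouse was above every vehicle mouse on the same diet, on both scales. The scaled level was 36.2 ± 12.04 (SD, n = 4) in vehicle SP, 46.1 ± 0.59 in vehicle HP, 74.7 ± 11.1 in G108 SP and 63.6 ± 8.75 in G108 HP. With G108 on SP Cbs rose by 1.07 ± 0.19 (log2, SE), or 2.10-fold, with an adjusted p of 0.00661, and it stayed called without any 1 library, with differences from 0.88 to 1.25. On HP the difference was 0.45, with an interval from 0.04 to 0.85 and an adjusted p of 0.368. The interaction was −0.62, with an unadjusted limma p of 0.0349 and an adjusted p of 0.575.

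The calls of Gnmt and Cbs on SP used the spread of all 4 groups. When only vehicle SP and G108 SP were fitted, the differences were as large, but the adjusted p was 0.0564 for Gnmt and 0.0914 for Cbs, and neither was called.

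Cth encodes cystathionine gamma-lyase, which releases cysteine (ENSMUSG00000028179, chr3:157894248-157925077, minus strand). TPM as deposited was 100, 55.7, 53.9 and 25.0 in vehicle SP and 89.5, 102, 100 and 76.8 in vehicle HP. With G108 it was 114, 249, 246 and 226 on SP and 209, 132, 134 and 281 on HP. On SP vehicle mouse 1 was the highest of its group and G108 mouse 1 the lowest of its own, and their scaled values, 144 and 96.7, made the groups overlap. On HP all G108 mice were above all vehicle mice. The scaled difference was 1.14 ± 0.32 on SP, with an adjusted p of 0.0790, and 0.84 ± 0.32 on HP, with an adjusted p of 0.287. Without vehicle SP mouse 1 the SP difference was 1.51 with an adjusted p of 0.00258, and without G108 SP mouse 1 it was 1.33 with an adjusted p of 0.0392. Unscaled, the SP difference was 1.90, with an adjusted p of 0.00103.

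Cdo1 encodes cysteine dioxygenase, which oxidises cysteine on the way to taurine and sulfate (ENSMUSG00000033022, chr18:46713193-46728395, minus strand). Its scaled level was 561 ± 110 (SD, n = 4) in vehicle SP, 584 ± 44.3 in vehicle HP, 488 ± 34.0 in G108 SP and 469 ± 62.1 in G108 HP. On SP the groups overlapped, whereas on HP every G108 mouse, at 378 to 517, was below every vehicle mouse, at 545 to 632. The scaled difference was −0.18 on SP, with an interval from −0.49 to 0.13, and −0.32 on HP, with an interval from −0.64 to −0.01 and an adjusted p of 0.413. Unscaled, Cdo1 was 0.60 higher on SP, with an adjusted p of 0.0349. The median over all genes was also 0.60 there, but the 1 added before the log shrinks the differences of genes at low TPM. A gene at the level of Cdo1 therefore cannot be set against that median directly. With array quality weights on the scaled values it was called lower on SP, at −0.36 with an adjusted p of 0.0167, so that both the direction and the call of Cdo1 depended on the setting.

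**Figure D2:**
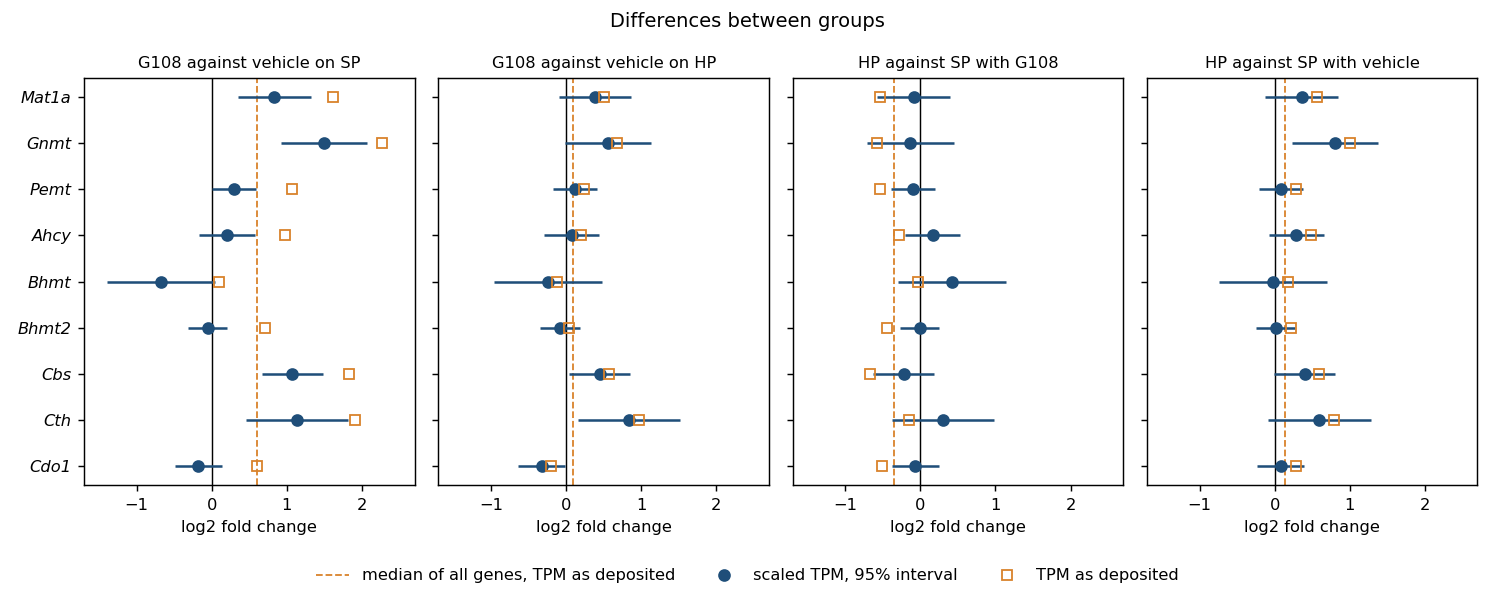
Log2 fold change of each gene (horizontal axis) in 4 comparisons (panels). Filled circles with lines are scaled TPM with the 95% interval from limma, open squares are TPM as deposited, the solid line marks 0 and the dashed line the median of all tested genes in TPM as deposited, which is 0.60 for G108 against vehicle on SP. On SP the open squares lie to the right of the circles for all 9 genes, and Gnmt, Cth, Cbs and Mat1a lie farthest right on both scales.

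Counted without a test, scaled values of G108 and vehicle mice did not overlap for 3 of the 9 genes on SP (Mat1a, Gnmt and Cbs, all above), against 9.21% of all genes. On HP they did not overlap for 4, with Gnmt, Cbs and Cth above and Cdo1 below, against 8.15% of all genes. Between the diets this held for 1 gene with vehicle, Gnmt, against 2.01% of all genes, and for 0 with G108, against 4.27%. The separation of Gnmt on HP was narrow, with the lowest G108 mouse at 923 and the highest vehicle mouse at 920. In TPM as deposited, 2 of the 9 did not overlap on HP, Cbs and Cth, both above. On that scale 908 of all 11839 genes lay above and 143 below. The mice of a group also differed from each other in a shared way. In vehicle SP, mouse 4 had the lowest scaled value of its group for 7 of the 9 genes, with a mitochondrial share of 24.0% of TPM against 13.8 to 16.2% in the other mice. In G108 HP, mouse 1 was among the upper 2 mice for 9 of the 9 genes and mouse 4 for 8, whereas mouse 3 was the lowest for 6. The mitochondrial share was 21.0% in mice 1 and 4, 27.4% in mouse 2 and 37.3% in mouse 3, and its part in the values was not tested. In G108 SP, mouse 1 was the lowest for 5 of the 9. Such counts were not made over all genes, so they cannot be read as a trait of these 9. Outside the 9, for instance, vehicle SP mouse 4 was the lowest of its group for Mat2a, Suox and Sqor but the highest for Gamt, Ftcd and Pcyt2.

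Over the libraries, Cbs, Mat1a and Cth followed Gnmt most closely of the 9 genes. Likeness was measured as the root mean square difference of the log2 scaled values over the 16 libraries, each gene centred on its own mean, from Gnmt, which had the smallest p of the F test. All genes share these libraries and their scaling, and the measure is a description. Cbs was at 0.30 and ranked 10 of 11838 other genes, Mat1a was at 0.30 and ranked 12, and Cth was at 0.33 and ranked 15. Ahcy was at 0.54 (rank 729), Pemt at 0.55 (rank 751), Bhmt2 at 0.73 (rank 6476), Cdo1 at 0.74 (rank 6755) and Bhmt at 0.93 (rank 10679), against a median of 0.72 over all genes. Outside the 9 genes the nearest were Sdc1 at 0.21, Slc25a15 at 0.22 and Fbp1 at 0.22. Sdc1 encodes the cell surface proteoglycan syndecan-1, Slc25a15 the mitochondrial ornithine carrier and Fbp1 the gluconeogenic fructose-1,6-bisphosphatase. Fbp1, for instance, was at 221 ± 97.3 scaled TPM (SD, n = 4) in vehicle SP, 316 ± 40.5 in vehicle HP, 517 ± 98.4 in G108 SP and 422 ± 169 in G108 HP.

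A ratio of 2 genes within a library does not change with the scaling between libraries. In all, 6 ratios were compared in 4 pairs of groups by two-sided exact permutation tests on the log2 ratio, which with 4 mice against 4 cannot give a p below 0.0286. Of the 24 tests, 9 reached that p, with an adjusted p of 0.0762 each, so that 0 passed after adjustment. The ratio of Cbs to Bhmt sets the entry into transsulfuration beside remethylation with betaine, and it was 0.164, 0.128, 0.0833 and 0.0754 in vehicle SP and 0.309, 0.214, 0.563 and 0.489 in G108 SP. The groups did not overlap, and the ratio was 3.43-fold higher with G108 (difference 1.78 on the log2 scale, exact p = 0.0286). On HP the ratio was 0.137, 0.186, 0.0912 and 0.188 with vehicle and 0.161, 0.288, 0.336 and 0.194 with G108, the groups overlapped, and the exact p was 0.114. Bhmt shares sequence with Gm5096 and overlaps the antisense gene Gm15622, and their part in this ratio was not tested. The ratio of Gnmt to Pemt, both of which use SAM, was 3.72 to 5.97 in vehicle SP, 7.03 to 8.97 in vehicle HP, 9.52 to 13.2 in G108 SP and 8.16 to 16.3 in G108 HP. It was 2.29-fold higher with G108 on SP and 1.65-fold higher on HP than on SP with vehicle (exact p = 0.0286 for each). With G108 on HP it was 1.35-fold, and the groups overlapped (exact p = 0.143). On HP against SP with G108 it was 0.973-fold, also with overlap (exact p = 0.943).

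The ratio of Ahcy to Mat1a was 1.10 to 1.69 in vehicle SP, 1.17 to 1.46 in vehicle HP, 0.803 to 0.878 in G108 SP and 0.907 to 1.15 in G108 HP. It was lower with G108 on both diets, 0.646-fold on SP and 0.808-fold on HP, and with G108 it was 1.19-fold higher on HP than on SP, each without overlap and with an exact p of 0.0286. Gm4737, which shares sequence with Ahcy, was also higher in every G108 HP mouse than in any G108 SP mouse, and its part in this ratio was not tested. The ratio of Cth to Cbs, the successive enzymes of transsulfuration, differed little with G108 on SP (1.04-fold, exact p = 0.829). In G108 HP it was 2.54 to 3.12, above the 1.94 to 2.37 of vehicle HP and the 1.65 to 2.35 of G108 SP (1.31-fold and 1.44-fold, exact p = 0.0286 for each). The ratio of Cdo1 to Cth was 0.444-fold with G108 on HP, without overlap (exact p = 0.0286). On SP it was 0.398-fold, but the groups overlapped through mouse 1 of each group, at 3.70 with vehicle and 5.40 with G108 (exact p = 0.0571). The ratio of Bhmt2 to Bhmt overlapped in all 4 comparisons, with exact p between 0.114 and 0.886.

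**Figure D3:**
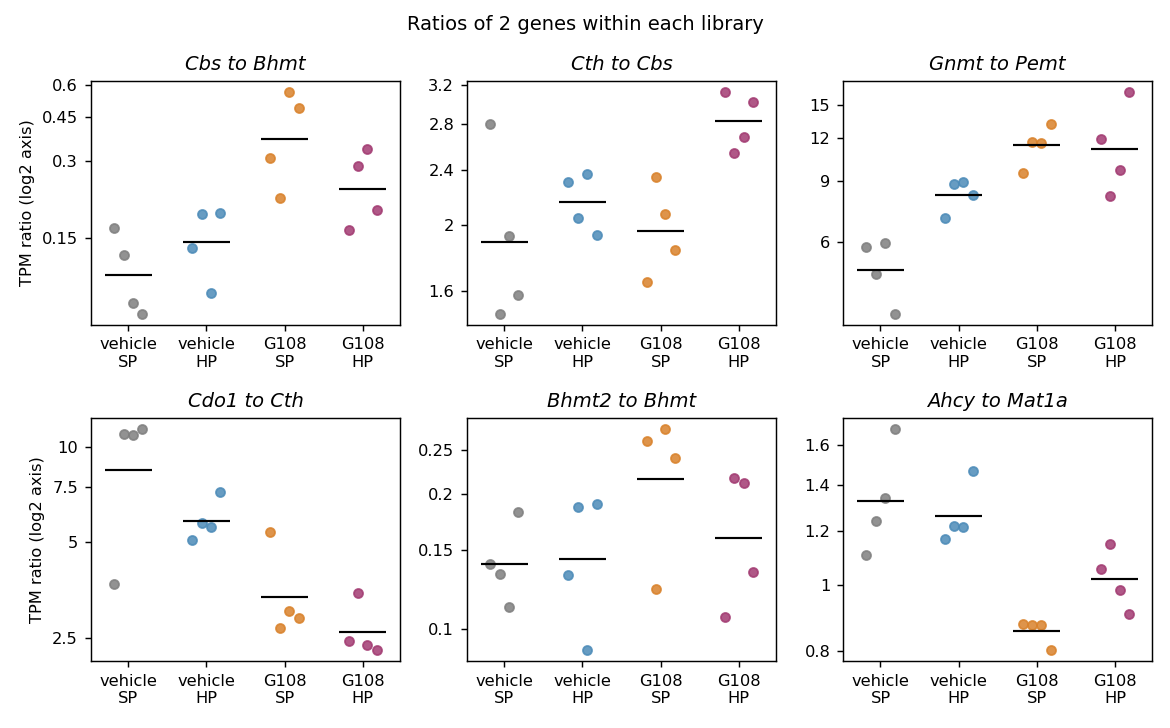
Ratios of the TPM of 2 genes in each mouse (vertical axes, log2 scaled) by group (horizontal axes). Points are mice in the order of their numbers and lines are geometric means. The ratio of Ahcy to Mat1a lies between 0.803 and 0.878 in all 4 G108 SP mice and above 1.10 in all vehicle mice, and the ratio of Cth to Cbs is highest on average in G108 HP.

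The rest of the pathway was described by 11 lists of 54 genes, of which 48 were tested. Ahcyl2, Mtr, Mthfd1l, Aldh1l2 and Gadl1 were among those with a mean TPM under 1. With G108 on SP, 3 were called higher and 1 lower, against 2.72% of all genes, with a median of 0.01 on the log2 scale. With G108 on HP 0 of the 48 were called, against 1.22% of all genes, with a median of −0.01, and 6 had an unadjusted limma p under 0.05, as did 11.3% of all genes. In TPM as deposited 41 of the 48 were called higher on SP, beside the 77.6% of all genes called there. The F test called 3, Got1, Tpmt and Nnmt, against 2.78% of all genes.

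Among the SAM-dependent methyltransferases, 2 of 6 tested rose on SP and 1 fell. Nnmt, which methylates nicotinamide, was at 111, 38.3, 46.1 and 37.0 TPM in vehicle SP and at 194, 274, 294 and 278 in G108 SP, without overlap. It rose by 1.51 ± 0.37 on SP, with an adjusted p of 0.0418. The HP difference of 1.26 ± 0.37 was not called, at an adjusted p of 0.141. As3mt, which methylates arsenic, rose by 0.78 on SP (adjusted p = 0.0450). Both calls lay close to the threshold: when each of the 16 libraries was left out in turn, Nnmt stayed called in 4 of the 16 fits, with an adjusted p of up to 0.119, and As3mt in 4, with an adjusted p of up to 0.159. Tpmt, thiopurine methyltransferase, fell by 0.61 on SP (adjusted p = 0.00506) relative to the median gene, whereas the deposited TPM gave 0.08. Mat2a and Mat2b encode the subunits of the SAM synthetase other than that of Mat1a, and had means of 12.5 and 3.97 TPM in these livers. They were at 0.21 and −0.05 on SP, and Ahcyl1 and Adk, adenosine kinase, at −0.16 and 0.24, none of them called.

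Downstream of cysteine, 1 of 6 tested genes was called on SP. Got1, the cytosolic aspartate aminotransferase, which also acts on cysteine sulfinate, was at 50.8, 38.7, 25.9 and 16.8 TPM in vehicle SP, 85.9, 99.4, 85.2 and 60.6 in vehicle HP, 160, 271, 318 and 292 in G108 SP, and 155, 138, 121 and 284 in G108 HP. It rose by 2.24 ± 0.28 on SP (adjusted p = 4.81e-04), a call kept without any 1 library. On HP the difference was 0.88 (adjusted p = 0.173), and the interaction of −1.36 had an unadjusted limma p of 0.00349 and an adjusted p of 0.575. Csad, which forms hypotaurine, ranged from 11.9 to 68.0 TPM within G108 SP, with a scaled difference of 1.14 (adjusted p = 0.149), and Suox, sulfite oxidase, was at 1.01 (adjusted p = 0.186). Fmo1, which oxidises hypotaurine, was at −0.29. In glutathione synthesis 0 of 3 were called, and Gclc, the catalytic subunit of the first step, was at −0.46 on SP (adjusted p = 0.0845) and −0.33 on HP, Gclm at −0.15 and Gss at −0.04. In sulfide oxidation 0 of 4 were called, with Sqor at 0.58, Mpst and Ethe1 at 0.09 and Tst at 0.04.

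In the other 5 lists, 0 genes were called in any comparison. For the remethylation of homocysteine with cobalamin, 3 of 5 genes were tested, and Mtrr, Mmachc and Mmadhc were at 0.06, −0.02 and 0.26 on SP. Of the genes of choline, betaine and sarcosine oxidation, which feed and follow Bhmt and Gnmt, Chdh was at −0.08, Aldh7a1 at 0.26, Dmgdh at −0.01 and Sardh, which oxidises the sarcosine made by Gnmt, at 0.25. Among the folate genes, Aldh1l1 was at 0.39, Mthfd1 at 0.37 and Shmt1 at 0.15. In methionine salvage, Apip was at −0.45 (adjusted p = 0.0743), Mri1 at −0.15, Enoph1 at −0.09 and Mtap at 0.09. In the CDP-choline route to phosphatidylcholine, Chkb was at −0.64 (adjusted p = 0.281), Pcyt1a at 0.21, Chpt1 at −0.11 and Cept1 at −0.10.

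**Figure D4:**
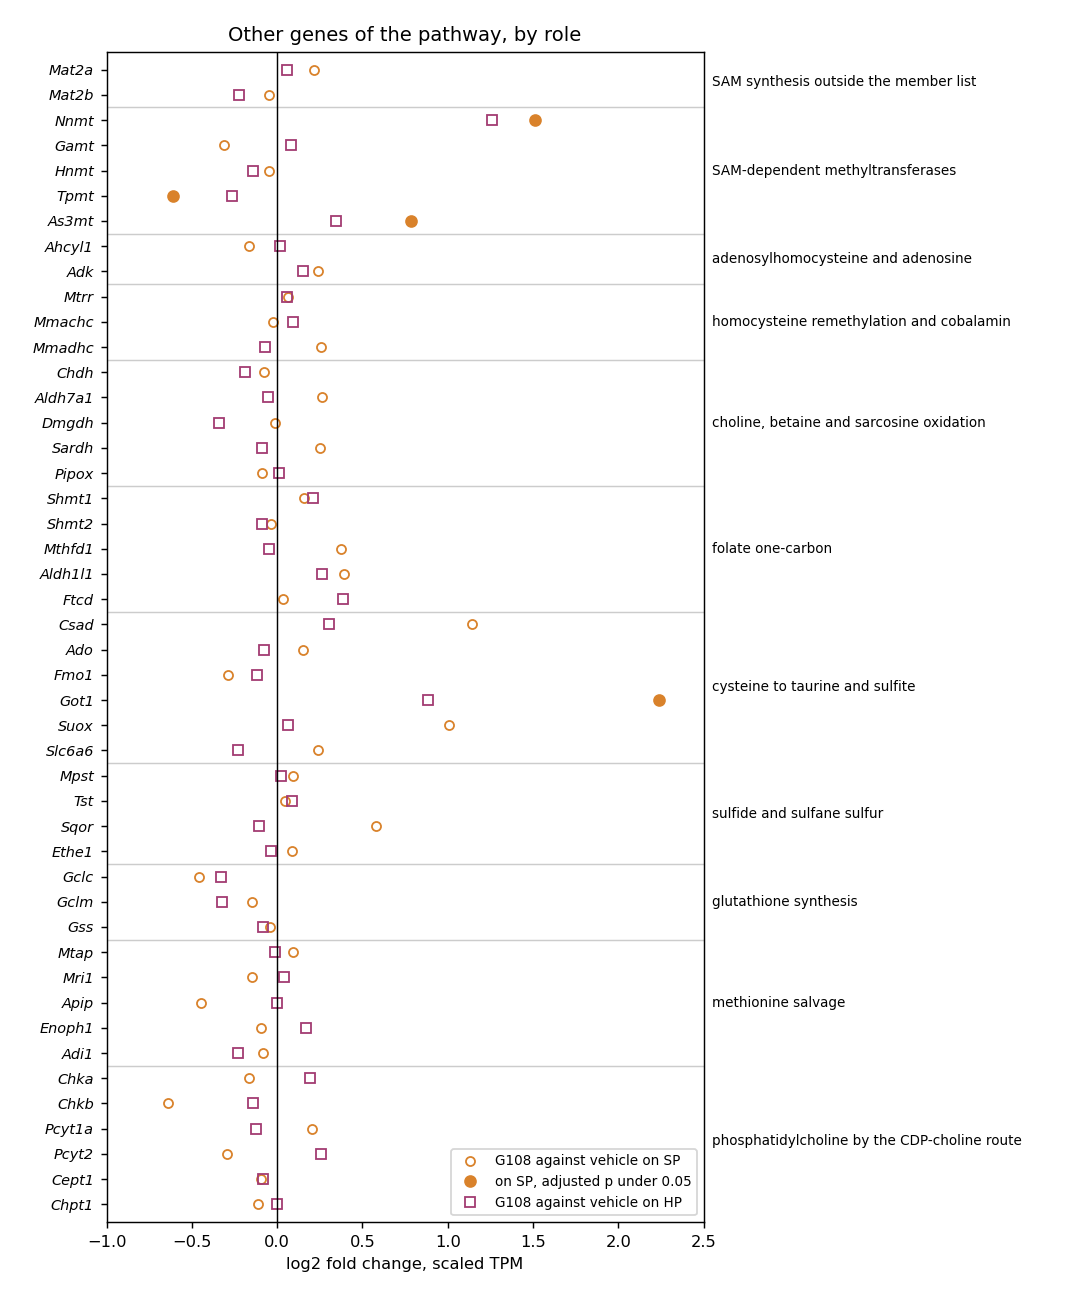
Log2 fold change in scaled TPM with G108 on SP (circles) and on HP (squares) for 46 of the 48 tested genes of the pathway outside the 9 genes (vertical axis, grouped by role). Filled symbols passed an adjusted p under 0.05. Got1 at 2.24, Nnmt at 1.51, As3mt at 0.78 and Tpmt at −0.61 are the filled symbols, all on SP.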

How the data were processed

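Liver RNA of 16 mice was sequenced, and groups were taken from the labels. The authors checked reads with FastQC 0.11.8, aligned them to GRCm38 with HISAT2 2.0.5, counted them per gene with featureCounts and divided by exon length to obtain the deposited TPM, which sum to the same total in every library. The authors compared groups with DESeq2 1.36.0. Symbols and coordinates came from GENCODE (GRCm38), promoters from RefSeq (GRCm38.p6). TPM were divided by median-of-ratios factors from 11591 genes, and log2(value + 1) was compared in limma 3.58.1 (R 4.3.3) with an intensity trend, for genes averaging 1 TPM or more. Tested on simulated data for G108 against vehicle on SP, where a log2 change of 1 was given to 200 of 11839 genes, 75.5% were recovered and 3.21% of 156 calls were wrong. The simulated noise was independent between genes and equally large in every group. The mice here differed in ways shared by many genes, so these shares need not hold for the real libraries. Reads per library were recovered from 138863 low values, 98.8% of which differed by under 0.02 from a whole number of reads. Within groups, r of log2 values lay between 0.925 and 0.990. Reads limit precision by counting error only, and p-values reflect the spread between mice.

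The members and lists were chosen with earlier results of these data known. All members were named, with up to 4 genes per pathway list by the smallest F test p (some are not reported here) and the 3 genes most like the leading member. Alternatives were TPM as deposited, other pseudocounts, filters and rescaling, voom on recovered reads, quality weights, a replicate block, only the groups compared, and each library left out.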

Additional observations from a re-analysis of the deposited data

Results flagged for a closer look

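In all, 60 groups of 4 mice were examined for a mouse far from its group, by Dixon's criterion of a gap above 0.829 of the range, and 8 were flagged. For normally distributed values the criterion flags about 0.05 of groups. The 60 groups are levels and ratios of the same genes in the same mice, so the 8 flags cannot be set against that share. Of the 8 flags, 3 were levels in scaled TPM. Gnmt was at 1192 in G108 SP mouse 1, with the next mouse at 1379. Bhmt was at 376 in vehicle SP mouse 3, with the next at 313. Cbs was at 45.2 in vehicle HP mouse 4, with the next at 46.3, in a group whose SD was 0.59.

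The other 5 were ratios within a library. The ratio of Cdo1 to Cth was 3.70 in vehicle SP mouse 1, where the next was 10.9, and 5.40 in G108 SP mouse 1, where the next was 3.04. In G108 HP it was 3.46 in mouse 2, where the next was 2.45. The ratio of Ahcy to Mat1a was 1.46 in vehicle HP mouse 4, where the next was 1.22, and 0.803 in G108 SP mouse 4, where the next was 0.873.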

How the results depend on the processing

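With G108 on SP, the number of the 9 genes called was 2 in the main analysis, 8 in TPM as deposited, 5 with array quality weights (Mat1a, Gnmt, Cbs and Cth higher, Cdo1 lower, among 1821 genes called) and 0 when only the groups compared were fitted, and 2 to 4 when each library was left out in turn, with 4 (Mat1a, Gnmt, Cbs and Cth) without G108 SP mouse 1. On HP it was 0 in the main analysis and 3 with array quality weights (Gnmt, Cbs and Cth). In the F test it was 2 in the main analysis, 7 in TPM as deposited, 5 with array quality weights, 1 with no filter, and 1 to 3 without 1 library, with 1 without vehicle SP mouse 3. The number called on SP stayed at 2 with voom, with TPM rescaled without mitochondrial and Mup genes, and with the other pseudocount and filters. Over all genes, G108 on SP called 322, against 9185 in TPM as deposited, and 105 with only the groups compared. The causes were not tested.

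Deviations from the group means of same-numbered mice had r between −0.57 and 0.53, above 0.1 in 8 of 24 pairs. Mice with different numbers were not compared in this way, so these r cannot show whether the mouse numbers of the labels pair the samples. With the number as a replicate block, 2 of the 9 were called on SP, 0 on HP and 0 in the F test, and the genes called on HP fell from 145 to 35.

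Directions turned as follows. In TPM as deposited, with G108 on SP, Bhmt (−0.68 scaled) was at 0.0944, Bhmt2 at 0.71, Cdo1 at 0.60 and Tpmt (−0.61 scaled, called) at 0.0763, and on HP Bhmt2 at 0.0436. On HP against SP with G108 Ahcy was at −0.29, Bhmt (0.42 scaled) at −0.0278 and Cth at −0.15, with vehicle Bhmt was at 0.18, and in the interaction Bhmt at −0.21. With TPM rescaled, Bhmt2 on SP was at 0.00748 and Ahcy on HP at −0.00275. With quality weights, on HP against SP with G108, Bhmt2 was at 0.0928, Pemt at 0.00193 and Cdo1 at 0.0335. With vehicle Bhmt was at 0.17, Pemt at −0.044 and Cdo1 at −0.0518, and in the interaction Pemt was at 0.0459 and Cdo1 at 0.0852. Without 1 library, Bhmt2 ranged from −0.12 to 0.0444 on SP and Ahcy from −0.047 to 0.18 on HP. On HP against SP with G108 the ranges were −0.27 to 0.0382 (Mat1a), −0.32 to 0.00261 (Gnmt), −0.0966 to 0.0587 (Bhmt2) and −0.12 to 0.0344 (Cdo1). With vehicle they were −0.24 to 0.12 (Bhmt), −0.0402 to 0.12 (Bhmt2), −0.0763 to 0.17 (Pemt) and −0.0584 to 0.16 (Cdo1), and in the interaction −0.12 to 0.0457 (Bhmt2).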
